A study of Aspergillus nidulans with 4 samples.

Results

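The filamentous fungus Aspergillus nidulans takes up preferred nitrogen sources such as ammonium first and keeps the genes for other sources low while they last, a regime called nitrogen metabolite repression. The comparison described here set mycelium fed urea against mycelium fed ammonium tartrate, both on glucose. The nitrogen source thus differed while the preferred carbon source stayed in place. Whether nitrogen repression was relieved on urea was not tested. The comparison rests on 2 of the 4 libraries of the series. Its members are the 6447 genes that the authors list for this pair of media on the sense strand, of 7752 genes listed for any pair. All of them were kept, and 6354 reached a deposited mean abundance of 3 on the log2 scale of CPM, the count scaled to a common library size, which was required before a gene was counted as different.

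Both groups were strain biA1, the study's wild type, grown as mycelium in minimal medium with 1% glucose at 37 °C for 9 to 12 h. The urea group received urea, at 10 mM per the sample labels and 5 mM per the growth protocol, a discrepancy that could not be settled. The ammonium group received 10 mM ammonium tartrate. Tartrate was therefore absent from the urea medium, and a difference due to ammonium and one due to tartrate cannot be told apart. Each group was 1 library made from pooled RNA of 3 cultures, depleted of ribosomal RNA before strand-specific sequencing. With 1 library per medium there is no replicate check and no test of the media was possible. "Higher" and "lower" below compare these libraries, and each log2 ratio, urea over ammonium, carries in parentheses an exact 95% Clopper-Pearson interval that covers counting error only. Amplified reads are not independent molecules.

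The listed genes took 1692957 reads in the urea library and 2599522 in the ammonium library. A count of 0 allows up to 3 reads, or 1.77 CPM in urea and 1.15 CPM in ammonium, with CPM taken over the listed genes. The table leaves out genes that were low in both media: the higher of a listed gene's CPM values was never under 10.4. In the other deposited tables, 485 further genes had counts from both glucose libraries, with at most 17 reads in urea and 26 in ammonium. Of the asexual development markers, 4 of 12 were listed, and 8, including brlA, abaA, wetA and the spore pigment genes wA and yA, were not among the listed genes. Of the 8 sexual development markers, 3 were listed.

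As background, the GATA factor AreA switches on genes for the uptake and breakdown of secondary nitrogen sources, and the co-repressor NmrA holds it back when ammonium and glutamine are plentiful. Fungi import urea through a proton-coupled symporter and split it with urease, a nickel enzyme, into ammonium and carbon dioxide. Iron is handled by a separate circuit. A. nidulans makes small iron chelators called siderophores, secretes some of them and takes them back through transporters of the Mir family. The bZIP factor HapX acts with the CCAAT-binding complex when iron is scarce and lowers genes that use iron, whereas the GATA factor SreA represses siderophore genes when iron is plentiful.

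Most of the transcriptome was alike in both media. Of the 6354 genes past the minimum, 5626 (88.5%) lay within 2-fold and the middle 50% of ratios ran between -0.33 and 0.37. A difference of 4-fold or more was found for 119 genes (1.87%). Of all genes past the minimum, 85 (1.34%) were higher in urea and 34 (0.535%) were lower. At 2-fold the shares were 7.15% higher and 4.31% lower, and 49.6% of all ratios were above 0. The whole counting interval lay above 0 for 1483 genes (23.3%) and below 0 for 1439 (22.6%). These percentages are the background against which the counts for gene groups are read. Together the 85 higher genes took 9686 CPM in urea and 1151 CPM in ammonium, and the 34 lower genes took 371 CPM in urea and 3444 CPM in ammonium.

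The genes past 4-fold were mostly weakly expressed. The median higher gene had 65 reads in urea and 13 in ammonium, and the median lower gene had 8 reads in urea and 64 in ammonium. The whole counting interval lay past 4-fold for 41 of the higher and 9 of the lower genes. In the 824 genes whose mean log2 CPM lay between 3 and 4, ratios had a standard deviation of 1.11, and 32 genes were past 4-fold higher and 20 lower. In the 750 genes at 8 or more the standard deviation was 0.55, and 3 were past 4-fold higher and 3 lower. The authors' deposited table, which assumes a spread between cultures rather than measuring it, gave an FDR of 0.05 or less to 51 listed genes higher in urea (0.791%) and 14 lower (0.217%).

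**Figure D1:**
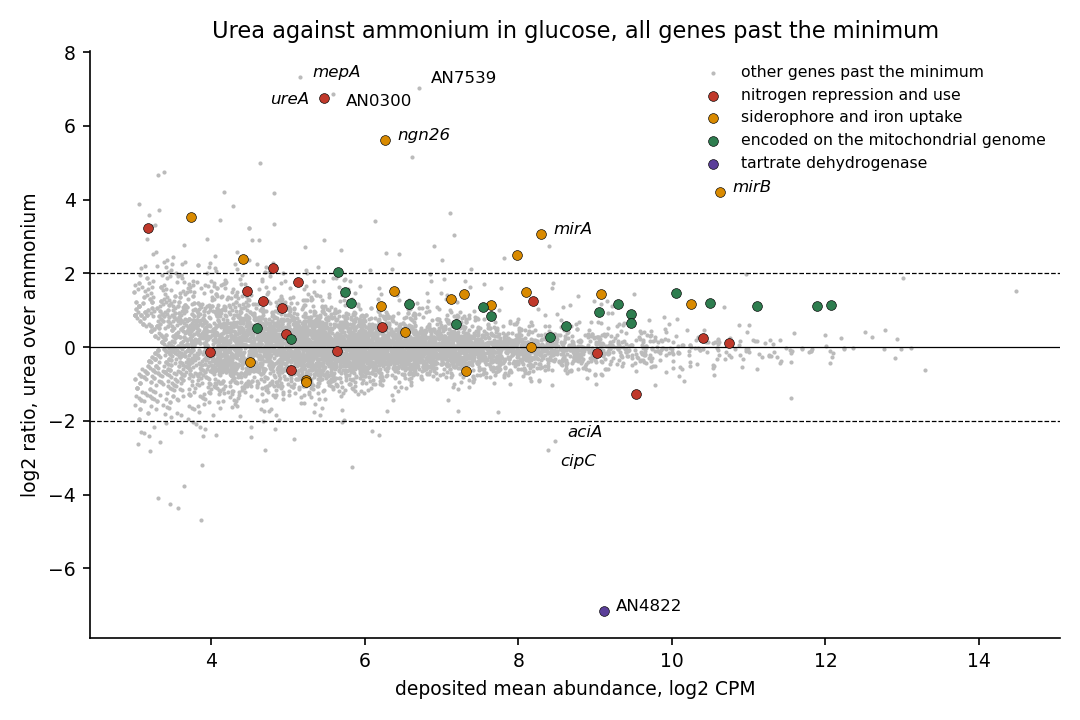
Log2 ratio of urea over ammonium against the deposited mean abundance (log2 CPM) for 6354 genes, each point 1 gene, with dashed lines at 4-fold. Ratios fan out at low abundance. Siderophore transporter gene mirB stands high and tartrate dehydrogenase gene AN4822 low at abundances where most genes lie near 0.

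In the lists of nitrogen genes, the highest ratios lay in uptake genes. The ammonium permease gene mepA (AN1181) had 122 reads in urea and 0 in ammonium. Against the 3 reads that a count of 0 allows it was 64.7-fold higher, and its counting interval began at a log2 ratio of 5.70. The urea symporter gene ureA (AN0418), annotated as under nitrogen catabolite repression, had 151 reads in urea and 1 in ammonium, or 89.2 and 0.385 CPM, a log2 ratio of 6.76 (5.41 to 13.22). Both had at most 1 read in ammonium. In these bulk samples fewer cells of a type and less RNA per cell cannot be told apart. The second ammonium permease gene, meaA (AN7463), was already expressed in ammonium and differed less, with 690 reads in urea and 458 in ammonium, 408 and 176 CPM, a ratio of 1.26 (1.09 to 1.43). The acidic amino acid permease gene agtA (AN6118), whose mutants fail to use aspartate, had 30 reads in urea and 4 in ammonium, 3.23 (2.07 to 5.54). In the authors' deposited table the FDR was 1.10e-08 for mepA, 1.41e-09 for ureA and 0.0330 for agtA.

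Urea breakdown differed less than urea uptake. The urease gene ureB (AN10079) had 69 reads in urea and 52 in ammonium, a ratio of 1.06 (0.54 to 1.63). AN6115, whose orthologs carry nickel, the urease metal, and are linked to regulation of urea breakdown, had 183 reads in urea and 68 in ammonium, 2.08 (1.69 to 2.52). The gene for the nickel-binding urease factor, ureD (AN0232), had 820 and 1451 reads, which after scaling is -0.15 (-0.28 to -0.03). Of 7 genes described with urea, urease, arginase or nickel, 2 were past 4-fold and 1 more past 2-fold in the direction of urea. The arginase gene agaA, which releases urea inside the cell, stood at 0.96 (0.51 to 1.43). The putative urea amidolyase gene lamA, also in the list for amides below, stood at -0.04 (-0.37 to 0.29). Whether lamA acts on urea was not tested. The arginine pathway genes otaA and argB stood at -0.13 and -0.31.

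Among the enzymes of ammonium assimilation, 1 of 3 was lower in urea and the others differed little. The glutamate synthase gene gltA (AN5134), which makes glutamate from glutamine, had 723 reads in urea and 2754 in ammonium, a ratio of -1.26 (-1.38 to -1.14). The glutamine synthetase gene glnA stood at 0.25 (0.18 to 0.33) on 2454 and 3277 reads, and gdhA, for the NADP-linked glutamate dehydrogenase, at 0.11 (0.04 to 0.18) on 2958 and 4356 reads. Of the 5 ammonium genes measured, mepA was past 4-fold and meaA past 2-fold higher, and gltA past 2-fold lower.

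Listed genes for nitrogen sources that were not supplied were mostly within 2-fold. Of the symbols sought, 10 of 14 for nitrate, 8 of 16 for purines, 2 of 4 for proline and 7 of 20 for amides and amino acids were matched. The others have no value here. In the nitrate pathway, the nitrate reductase gene niaD had 98 reads in urea and 103 in ammonium, 0.59 (0.18 to 1.01), and the nitrite reductase gene niiA 1489 and 2092, 0.18 (0.08 to 0.28). The nitrite transporter gene nitA, below the abundance minimum, had 29 reads in urea and 0 in ammonium, which makes it at least 15.4-fold higher. The molybdenum cofactor gene cnxE stood at 1.11 (0.67 to 1.58), and 7 of 8 nitrate genes past the minimum lay within 2-fold. Of these, the other cofactor genes cnxABC, cnxH, cnxF and cnxG stood at 0.66, 0.38, 0.07 and -0.34, and the flavohemoglobin gene fhbA at 0.11. Its relative fhbB, below the minimum, had 19 reads in urea and 4 in ammonium.

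Purine genes split by function. The 4 permease genes had positive ratios: uapC, for uric acid and xanthine, had 50 reads in urea and 31 in ammonium, 1.33 (0.68 to 2.05), furA, for allantoin, stood at 1.05 (0.28 to 1.91), azgA at 1.00 (0.75 to 1.25), and fcyB at 0.85 (0.16 to 1.59). The breakdown genes hxA, uaZ, hxB and uaX lay between -0.23 and 0.03. In proline use, the permease gene prnB stood at -0.06 (-0.47 to 0.35) and prnX at -0.02. In the list of 7 genes for amides and amino acids, lamB, which serves use of 2-pyrrolidinone, was 2-fold higher. It had 61 reads in urea and 40 in ammonium, 1.25 (0.68 to 1.89). The acetamidase gene amdS had 44 and 61 reads, 0.19 (-0.40 to 0.78). The members gatA, gabA, lamA and ivdA lay between -0.07 and 0.70. The remaining member, acuH at -0.37, was listed by symbol and is not an amide or amino acid gene.

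Regulator transcripts differed little. The areA transcript had 148 reads in urea and 162 in ammonium, 0.54 (0.21 to 0.87), and nmrA had 43 and 105, -0.61 (-1.17 to -0.09). The regulator of nitrogen repression meaB (AN4900) was the 1 member of 12 past 2-fold, with 56 reads in urea and 30 in ammonium, 1.53 (0.91 to 2.26). The others were within 2-fold: the second GATA factor gene areB, amdX and arcA, the arginine regulator, stood at 0.37, 0.43 and 0.52, and the co-activator gene tamA at -0.26. The pathway activator genes nirA, prnA, uaY, amdR and facB lay between -0.38 and -0.01, and the median of the 12 was -0.01.

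Grouped by annotation, 17 genes are described as under nitrogen repression, as responsive to nitrate limitation or as serving nitrogen assimilation. Past 4-fold, 3 were higher (ureA, agtA and AN2572) and 0 lower. At 2-fold, 8 were higher and 1 lower, and the median was 0.54, beside -0.00 over all genes past the minimum. AN2572, a putative dipeptidyl-peptidase gene, had 78 reads in urea and 27 in ammonium, 2.15 (1.55 to 2.89). The putative peptide transporter gene AN8903 had 92 and 42, 1.77 (1.26 to 2.36). Of the 8 genes among them whose transcripts are annotated as higher on nitrate limitation, 4 were at least 2-fold higher and 1, gltA, 2-fold lower. In spite of these ratios the 17 genes together took a like share of reads, 0.504% in urea and 0.501% in ammonium, since glnA, gdhA and gltA make up most of it.

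**Figure D2:**
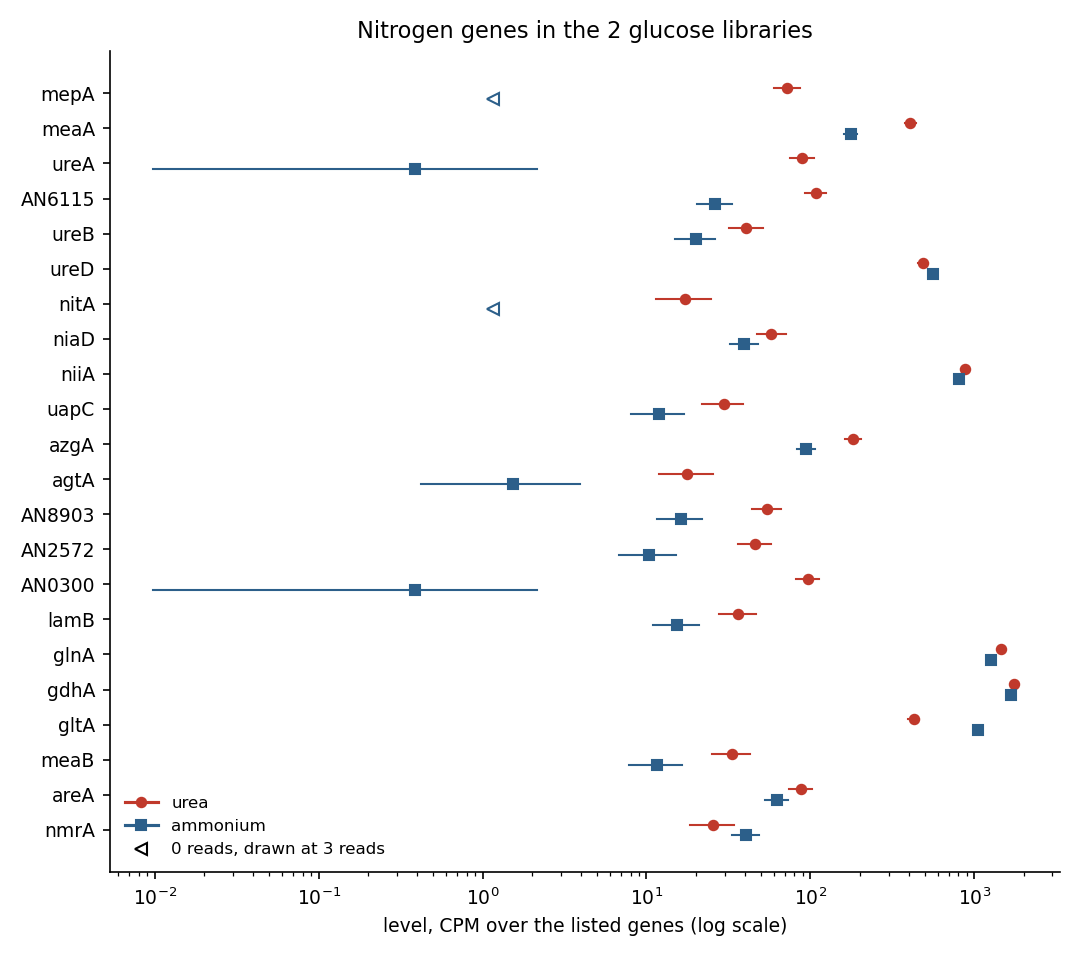
Level in CPM over the listed genes (log scale) of 22 nitrogen genes in the urea library (circles) and the ammonium library (squares), with 95% Poisson counting intervals. Open triangles mark 0 reads, drawn at 3 reads. The genes mepA, ureA, nitA and AN0300 had 0 or 1 read in ammonium, while glnA, gdhA and niiA nearly overlap.

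Outside these lists, the highest ratios belonged to a hydrophobin gene and an asparaginase gene. AN7539, a putative hydrophobin (a water-repellent coat protein) annotated as induced by nitrate, had 348 reads in urea and 3 in ammonium, 7.04 (5.97 to 9.81). AN0300, a putative asparaginase, which frees ammonium from asparagine, had 163 and 1, 6.87 (5.52 to 13.33). Among 20 genes annotated as induced by nitrate, 5 were past 2-fold higher and 1 lower, and the median was 0.11. AN1061, a putative permease gene for gamma-aminobutyrate, was one of the 5, with 139 reads in urea and 62 in ammonium, 1.81 (1.39 to 2.29).

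The other genes among the 15 highest ratios that belong to none of the groups described here were weak. AN3400, with melanin synthesis orthologs, had 64 reads in urea and 6 in ammonium, 3.83 (2.88 to 5.58). AN11121, annotated as repressed by nitrate, had 29 and 2, 3.87 (2.54 to 7.64). AN7990 and AN8652, with no stated function, had 60 and 37 reads in urea and 4 and 1 in ammonium.

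At the other end, AN4822, a putative tartrate dehydrogenase, had 12 reads in urea and 2904 in ammonium tartrate, or 7.09 and 1117 CPM, a log2 ratio of -7.16 (-8.20 to -6.44). This is the lowest ratio of all genes past the minimum, for an enzyme whose substrate was present in the ammonium medium only. Its neighbour in the gene order, AN11233, with a predicted chitinase domain, had 1 read in urea and 71 in ammonium, -4.68 (-10.80 to -2.96). Next in abundance among the lower genes were aciA (AN6525), a putative formate dehydrogenase, with 172 and 1609 reads, -2.55 (-2.79 to -2.33), and cipC (AN7937), named for its response to concanamycin A, with 140 and 1541 reads, -2.78 (-3.05 to -2.54). AN7108 had 17 and 270 reads, -3.26 (-4.12 to -2.61), and dfgB, a putative endo-mannanase gene, 38 and 297, -2.27 (-2.82 to -1.81). Among the 15 lowest ratios, AN8490, AN3479 and AN8011, with no stated function, each had 1 read in urea, and 57, 53 and 47 in ammonium. AN4949, with orthologs that bind chromatin insulators, had 2 reads in urea and 59 in ammonium, -3.77 (-7.29 to -2.30). AN6729, AN1550, AN3961, the kinase-domain gene AN4196, AN2361 and the WD40 repeat gene AN4771 lay between -3.19 and -2.49, with 3 to 16 reads in urea. Most lower genes were weak: 6 of the 34 reached 100 CPM in ammonium, and 13 had 5 or fewer reads in urea.

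Iron uptake genes were higher in urea as a group. By description 20 genes concern siderophores or iron uptake, and all passed the minimum. Past 4-fold, 6 were higher in urea and 0 lower. The 6 include the regulator gene hapX, which is described again below. Past 2-fold, 14 were higher and 0 lower, and the median was 1.38. Together they took 0.846% of the reads in urea and 0.261% in ammonium. Among the transporter genes, mirB (AN8540) had 4979 reads in urea and 430 in ammonium, 2941 and 165 CPM, a ratio of 4.20 (4.06 to 4.35), and mirA (AN7800) had 937 and 177, 3.07 (2.84 to 3.31). In the authors' deposited table mirB and mirA were at an FDR of 0.05 or less. The iron regulator genes hapX and sreA and the gene AN3681, described below, were not. The transporter gene mirC stood at 1.12 (0.78 to 1.47) and AN5378, with siderophore transport orthologs, at 1.45 (1.32 to 1.59).

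Siderophore synthesis genes ranged from near 0 to among the highest ratios. The sidA gene (AN5823), whose monooxygenase makes the first committed step from ornithine, had 2814 reads in urea and 1985 in ammonium, 1.17 (1.09 to 1.26). At the top, ngn26 (AN8539), an acetyltransferase gene and ortholog of sidG of Aspergillus fumigatus, had 255 reads in urea and 7 in ammonium, 5.63 (4.79 to 7.19). AN0609 and AN6235, whose orthologs act in synthesis of triacetylfusarinine C, a secreted siderophore, had 718 reads in urea and 202 in ammonium, 2.49 (2.27 to 2.73), and 331 and 211, 1.31 (1.07 to 1.58). By contrast the peptide synthetase gene sidC had 478 and 756 reads, 0.01 (-0.16 to 0.18), and AN7884, similar to ferrichrome synthetases, stood at -0.95 (-1.50 to -0.45). The genes AN0608 and AN6234, with siderophore synthesis orthologs, stood at 1.53 (1.20 to 1.88) and 1.44 (1.21 to 1.69). Since AN0608, AN0609, AN6234 and AN6235 are also annotated with ergosterol synthesis, they make up all 4 genes past 2-fold in a list of 9 ergosterol genes.

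Several of these genes sit side by side in the gene order of the RefSeq annotation (assembly ASM1142v1). Adjacent pairs were ngn26 with mirB, and mirA with AN7801, an iron assimilation esterase by orthology with 44 reads in urea and 5 in ammonium, 3.52 (2.48 to 5.50). AN6234 and AN6235 adjoin AN6236, a putative nonribosomal peptide synthetase gene with 1763 and 1042 reads, 1.43 (1.32 to 1.54). AN0609 and AN0608 adjoin sidC, so that a run of 3 neighbours held ratios of 2.49, 1.53 and 0.01.

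The 2 iron regulators differed in opposite directions. The hapX transcript had 62 reads in urea and 18 in ammonium, 2.38 (1.68 to 3.30), whereas sreA had 43 and 129, -0.90 (-1.45 to -0.41). AN6400, a ferric-chelate reductase by orthology, stood at 1.14 (0.94 to 1.35). Of 7 genes for enzymes and proteins that use iron or make heme, 6 had whole intervals below 0 and 0 above, beside 22.6% and 23.3% of all genes, and the median was -0.63. The heme synthesis gene hemA stood at -0.63 (-0.86 to -0.40), the aconitase gene acoA at -0.82 (-1.04 to -0.61), the cytochrome c gene cycA at -0.59 (-0.72 to -0.47), the homoaconitase gene lysF at -0.97 (-1.19 to -0.76) and the catalase gene catB at -1.19 (-1.64 to -0.77). The member acoB went the other way at 0.14 (-0.28 to 0.55). The list was drawn from 15 symbols, of which 7 were matched. AN3681, an ortholog of cccA, which moves iron into the vacuole in Aspergillus fumigatus, had 38 reads in urea and 322 in ammonium, -2.39 (-2.94 to -1.93).

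In a wider list by description, the pattern did not extend to all iron proteins. Of 53 genes described with iron-sulfur clusters or heme, 5 were past 2-fold higher and 6 lower, and the median was -0.06. The cytochrome c peroxidase gene ccp1 had 59 reads in urea and 315 in ammonium, -1.73 (-2.17 to -1.34). The annotation also records proteins that change in a hapX mutant. Of 10 described as more abundant there 1 was 2-fold higher and 0 lower, and of 15 described as less abundant 1 was 2-fold higher, AN3161 at 2.11 (1.85 to 2.38), and 0 lower.

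**Figure D3:**
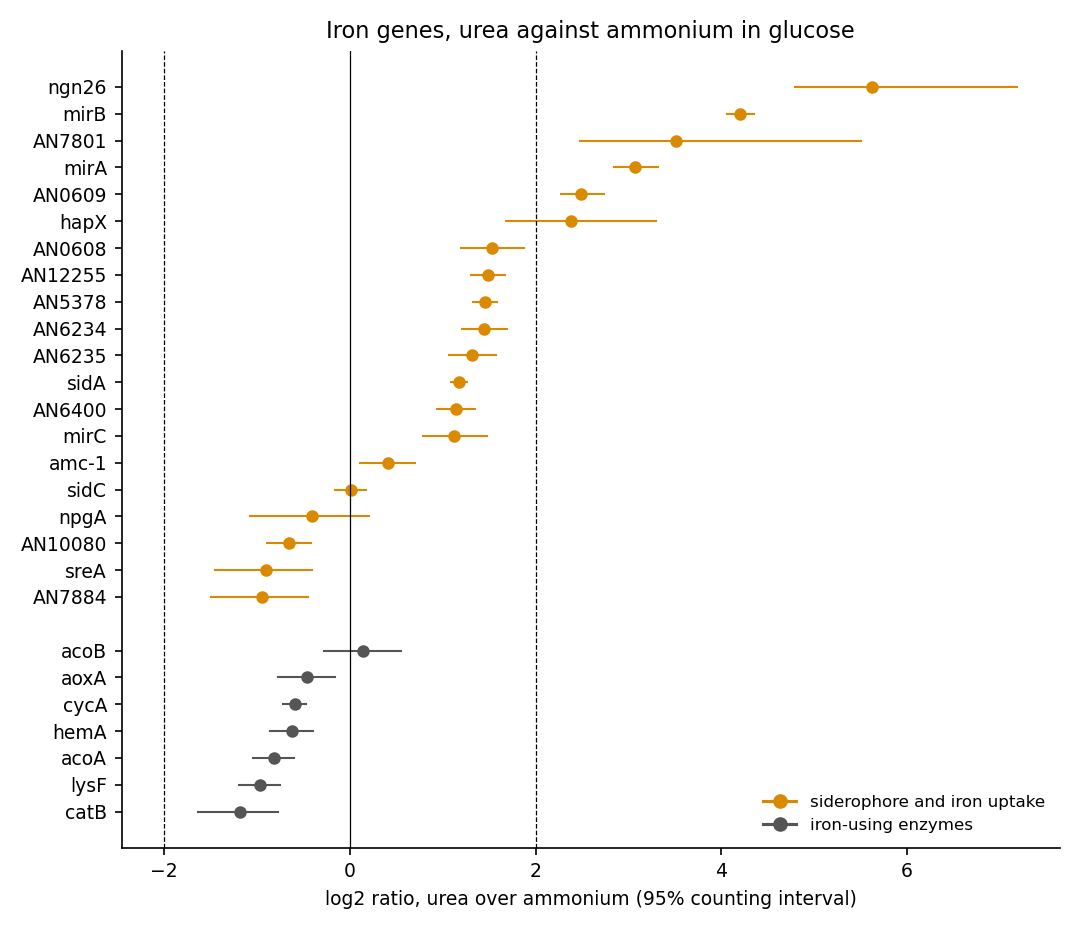
Log2 ratio of urea over ammonium with 95% counting intervals for 20 genes described with siderophores or iron uptake and for 7 iron-using genes, with dashed lines at 4-fold. In the upper group 14 genes lie at or above 1 and 4 below 0, and in the lower group 6 intervals lie wholly below 0.

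Zinc and light annotations also held several of the higher genes. The neighbouring genes AN1831, aspnd1 (AN1832) and AN1833 were each past 4-fold. The aspnd1 gene, for a membrane glycoprotein made in greater amounts when zinc is limiting, had 429 reads in urea and 54 in ammonium, 3.63 (3.25 to 4.10), and AN1833, with zinc transport orthologs, 41 and 13, 2.22 (1.40 to 3.35). Of the other 5 genes of zinc uptake and homeostasis, 4 lay within 2-fold. AN3799, a low-affinity zinc transporter by orthology, was 2-fold lower with 30 and 112 reads, -1.21 (-1.86 to -0.64).

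The annotation marks 13 genes past the minimum as induced by light. All 13 had ratios above 0 with the whole interval above 0, 7 were at least 2-fold and 3 at least 4-fold higher, and the median was 1.46. They include ngn26. The others past 4-fold were 2 homologs of the clock-controlled gene ccg-1 of Neurospora crassa, AN9285 with 133 reads in urea and 27 in ammonium, 2.91 (2.36 to 3.62), and AN5056 with 151 and 38, 2.62 (2.14 to 3.21). The cryptochrome gene cryA (AN0387), a blue-light receptor outside that list, had 37 and 11 reads, 2.30 (1.42 to 3.54). The labels do not give the lighting of the cultures. Beside these, the listed development markers had positive ratios, with 1 of 4 asexual and 1 of 3 sexual markers past 2-fold. The regulator gene flbD stood at 1.57 (0.90 to 2.36) on 50 reads in urea and 26 in ammonium. The genes nosA and nsdD stood at 1.57 (0.61 to 2.80) on 24 and 12, and 0.78 (0.45 to 1.11) on 161 and 149. The others, flbC, steA, fluG and vosA, lay between 0.04 and 0.56, and the intervals of steA and vosA included 0.

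Among surface proteins, 39 of 56 genes predicted to carry a glycosylphosphatidylinositol anchor had ratios above 0. At 2-fold 11 were higher and 0 lower, 4 passed 4-fold, and the median was 0.44. The anchored cell wall protein gene AN7323 had 84 reads in urea and 3 in ammonium, 5.00 (3.88 to 7.78), and AN8913 had 93 and 7, 4.18 (3.30 to 5.76). Outside the anchored list, the putative alpha-1,3-glucanase gene agnD had 71 and 11, 3.22 (2.43 to 4.43). The gene cetA, for a thaumatin-like protein of germinating spores, had 31 and 3, 3.58 (2.36 to 6.39). Cell surface genes were not higher in general. Of 121 genes described with chitin or the cell wall, 56 had ratios above 0 and 65 below. In that list 10 were past 2-fold higher and 5 lower, and the median was -0.03.

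Genes of the mitochondrial genome were higher in urea as a block, but nuclear genes of the same machinery were not. All 20 listed genes in the identifier range of the mitochondrial genome, 17 of them described with mitochondria, had ratios above 0, 18 with the whole interval above 0. Past 2-fold, 11 were higher and 0 lower, 1 was past 4-fold, and the median was 1.09. Their share of reads was 2.27% in urea and 1.11% in ammonium. The cytochrome oxidase subunit gene oxiC had 9889 reads in urea and 7137 in ammonium, 1.14 (1.10 to 1.18), the NADH dehydrogenase subunit gene ndhD 8641 and 6349, 1.11 (1.07 to 1.16), and the cytochrome b gene cobA 2599 and 1495, 1.47 (1.38 to 1.56).

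Of 42 nuclear genes for respiratory complexes and ATP synthase, 1 was past 2-fold higher and 3 lower, and the median was -0.05. The higher gene was AN10626, with an ATP synthase domain, at 3.46 (2.53 to 5.05) on 56 reads in urea and 7 in ammonium. The cytochrome reductase subunit genes AN8273 and AN4388 both stood at -1.03, on 961 and 378 reads in urea and 3131 and 1229 in ammonium. The 42 mitochondrial ribosomal protein genes had a median of -0.20, and 0 were past 2-fold higher and 1 lower.

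Core metabolism on glucose differed little. The 13 genes of glycolysis and fermentation had a median of -0.01 and 0 were past 2-fold, from pfkA at -0.38 (-0.44 to -0.33) to fbaA at 0.33 (0.23 to 0.42). Of 31 cytosolic ribosomal protein genes 0 were past 2-fold, and the median was -0.02. Of 47 chaperone genes, 45 lay within 2-fold. The pyruvate decarboxylase gene pdcA had 14701 reads in urea and 23558 in ammonium, -0.01 (-0.04 to 0.02). The carbon repressor gene creA stood at 0.02 (-0.41 to 0.44) and the glucose transporter gene mstE at 0.14 (0.07 to 0.22). Among genes that glucose represses, the alcohol dehydrogenase gene alcA was lower in urea with 29 reads in urea and 113 in ammonium, -1.27 (-1.93 to -0.69). The isocitrate lyase gene acuD stood at 0.41 (0.10 to 0.73). Of 7 ethanol and acetate genes, alcA was the lowest, 0 were past 2-fold higher and 1 lower, and the median was -0.01. Of 8 gluconeogenesis and glyoxylate genes, 0 were past 2-fold higher and 1 lower, and the median was 0.01.

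**Figure D4:**
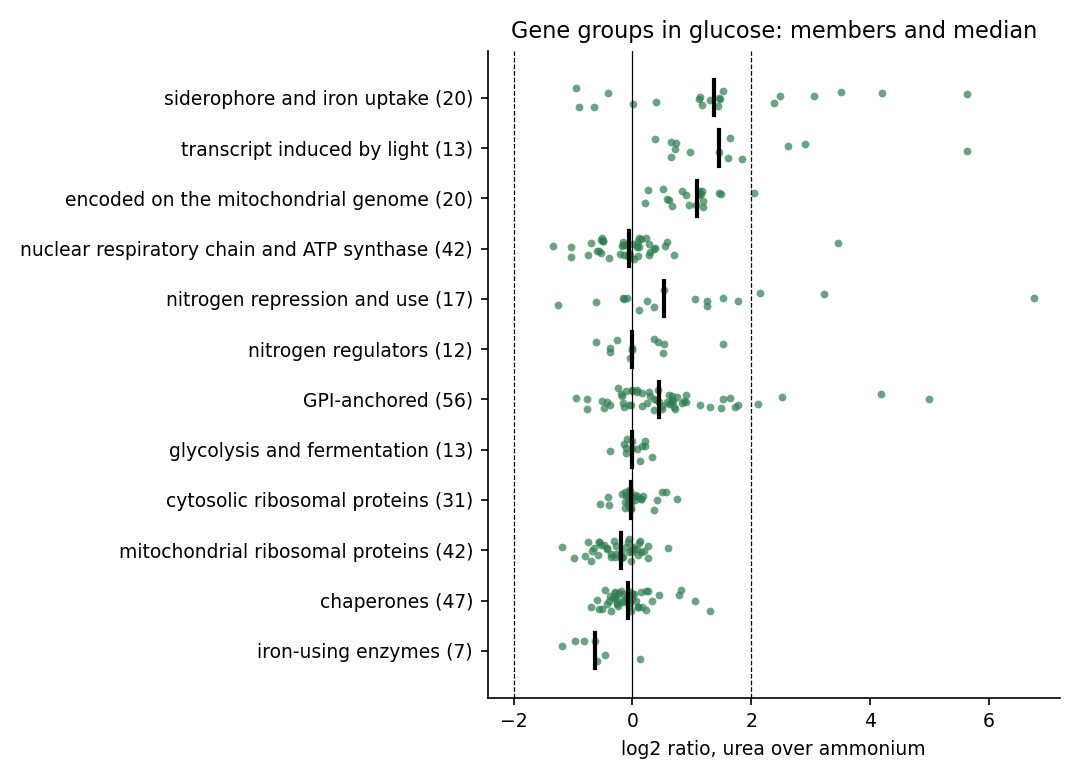
Log2 ratios of urea over ammonium of the members of 12 gene groups (points, with the number of members past the minimum) and their medians (bars), with dashed lines at 4-fold. All light-induced and mitochondrially encoded genes and 16 of 20 genes described with siderophores or iron uptake lie to the right of 0. Glycolysis and cytosolic ribosomal protein genes centre on it.

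Genes described with fatty acids or peroxisomes were more often past 2-fold lower than higher. Of 92 genes for fatty acids and peroxisomes, 4 were past 2-fold higher and 13 lower, and the median was -0.15. The oxylipin genes ppoA and ppoC, fatty acid oxygenases that make developmental signals, had 19 reads in urea and 100 in ammonium, -1.69 (-2.52 to -1.01), and 161 and 865, -1.75 (-2.01 to -1.51). Their relative ppoB stood at -0.76 (-1.31 to -0.26). Of 12 pectin and xylan degradation genes, 1 was 2-fold higher and 4 lower, but 6 ratios were above 0 and 6 below, and the median was -0.06. The wider list of 61 glycoside hydrolases had a median of 0.05. The lower genes included abfC at -2.17 (-4.03 to -0.99) and the beta-xylosidase gene xlnD at -1.81 (-3.31 to -0.75), on 5 and 7 reads in urea and 40 and 42 in ammonium.

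The most abundant transcripts were largely shared, with 9 of the top 10 genes in common. AN5245, with no description, took 3.32% of reads in urea (3.30% to 3.35%) and 1.20% in ammonium (1.19% to 1.21%) after 56277 and 31178 reads, a ratio of 1.52. AN1236, also without a stated function, ranked 2 in urea with 21661 reads and 26 in ammonium with 9332, 1.88 (1.85 to 1.92). The top 10 genes of each library took 10.7% of reads in urea and 8.19% in ammonium. AN8746, a possible pseudogene, ranked 7 in urea and 1 in ammonium, at -0.62 (-0.65 to -0.59).

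In the gene order, 18 of the 85 higher genes formed 7 runs of neighbours that were all past 4-fold, and 2 of the 34 lower genes formed 1 run, AN4822 with AN11233. Of the 119 genes, 113 could be placed. A run of 3 held AN7322, AN7323 and AN7324, at 5.17, 5.00 and 2.75, between neighbours at 0.12 and -0.42. Another held AN0402, AN0403, with a predicted flavin-binding oxidoreductase domain, and AN0404, a predicted transporter, at 2.55, 2.73 and 2.42, with 982 reads in urea and 234 in ammonium for AN0403. The third run, AN3159 to AN3161, had ratios of 3.71, 3.43 and 2.11, and hapX adjoined agnD. Whether these neighbours overlap and share reads was not tested.

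Antisense counts, used only as support, mostly shared the direction of the sense strand at the same loci. They summed to 36.3% of the sense total in urea and 40.6% in ammonium. Of 6515 antisense features of sufficient abundance, 142 (2.18%) were past 4-fold higher in urea and 151 (2.32%) lower. Of the 85 sense genes higher in urea, 67 had antisense counts past the minimum, of which 60 were also above 0 and 27 past 4-fold in the same direction. Of the 34 lower genes the numbers were 30, 21 and 12, and 0 genes in either set were 4-fold different in the opposite direction. The highest antisense ratio belonged to AN7539, with 245 reads in urea and 0 in ammonium, and the lowest to AN4822, with 5 and 979. Antisense reads at mirB numbered 1718 in urea and 118 in ammonium. How far sense reads assigned to the other strand contribute was not tested.

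Beside the fructose libraries (0.1% fructose), which share none of these samples, the genes called in glucose behaved in several ways. In fructose, 11.4% of 7203 genes were past 4-fold higher in urea and 11.0% lower. Of the 65 higher genes also measured there, 14 were 4-fold higher and 7 were 4-fold lower. Of 27 lower genes, 5 were 4-fold lower and 5 higher. AN4822 had 35 reads in urea and 10897 in ammonium in fructose, and AN7539 had 39 and 0. The siderophore and iron genes went the other way there, with a median of -1.39 over 19 members, and so did the 20 mitochondrially encoded genes, with -3.01. Low medians in fructose were not particular to these groups. Glycolysis and fermentation stood at -2.67 and cytosolic ribosomal proteins at -2.40, while other groups were above 0, such as fatty acids and peroxisomes at 0.76. The fructose table does not list ureA and mepA, which each had 5 reads in fructose with urea.

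**Figure D5:**
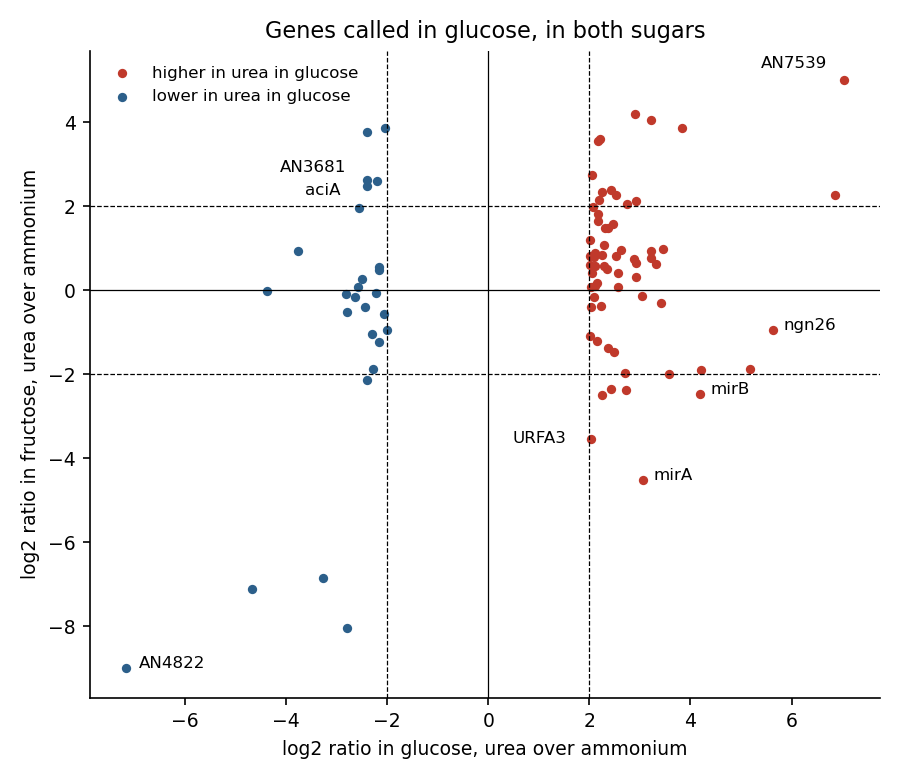
Log2 ratio of urea over ammonium in fructose against that in glucose for the 92 genes past 4-fold in glucose and past the minimum in fructose, with dashed lines at 4-fold. AN4822 is low in both sugars and AN7539 high in both, while mirA, mirB and URFA3 are high in glucose and low in fructose.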

How the data were processed

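Sense and antisense read counts per gene were used as deposited. Counting used HTSeq and comparison used edgeR, per the submitters' processing notes, with no versions given. Neither aligner nor genome build is given in the sources used here. Per the file headers, the authors also deposited a log2 fold change (ammonium over urea, sign turned here), a p-value, an FDR and a mean log2 CPM for each gene. Their p-value rests on an assumed biological coefficient of variation of 0.3, the value carried in the names of the deposited tables. Each count column was assigned to its library by the sample title, and 22 other per-library columns were not used.

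Counts were scaled by TMM (edgeR 4.0.16 in R 4.3.3) and log2 ratios took a prior count of 1. A gene was called at 4-fold or more if its deposited mean log2 CPM was 3 or more. The ratio and its interval were tested on simulated data. Gene lists came from 209 symbols, of which 128 matched, from words in the deposited gene descriptions and from a range of identifiers. Genes were drawn by rule: the 15 highest and 15 lowest ratios, all members of the nitrogen and iron lists, up to 6 from other lists, the 10 most abundant, antisense extremes and runs of neighbours. Of those drawn from the other lists and the extremes of antisense, only some are described. Others, among them cryA, AN3681 and dfgB, were chosen after their values were seen. Members and lists were chosen with earlier results of these data known. RefSeq (assembly ASM1142v1) gave gene order only, and 6134 of 6447 identifiers matched. Levels were not compared between genes per length. The alternatives were another scaling, prior count and minimum, the authors' fold change, and intervals wholly past 4-fold.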

Additional observations from a re-analysis of the deposited data

Results flagged for a closer look

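For 12 genes the libraries were at least 4-fold different in one direction in glucose and at least 4-fold different in the other direction in fructose. They were 7 of the 65 genes higher in urea in glucose and measured in fructose, and 5 of the 27 lower ones. Of all 7203 genes measured in fructose, 11.0% were past 4-fold lower in urea and 11.4% higher, so reversals are to be read beside these shares. Each sugar has 1 library per medium, so the difference between sugars was not tested. It is given as the log2 ratio of urea over ammonium in glucose minus that in fructose. Among genes higher in urea in glucose it was 7.58 for the siderophore transporter gene mirA, 6.67 for mirB, 5.58 for the germination gene cetA and 5.58 for URFA3 of the mitochondrial genome. It was 5.11 for AN0403, 4.78 for its neighbour AN0404 and 4.75 for AN12232. Among genes lower in urea in glucose it was -6.16 for AN8223, linked to carbon starvation, -5.89 for AN5000, -5.01 for the cccA ortholog AN3681, -4.88 for AN9117 and -4.82 for AN2748. Several values rest on few reads. In fructose, AN5000 had 17 reads in urea and 0 in ammonium, AN12232 had 2 and 10, cetA had 5 and 14, AN8223 had 39 and 1, AN2748 had 48 and 4, and URFA3 had 5 and 42. For mirA and AN3681 the lower fructose counts were 7 in urea and 9 in ammonium. In glucose, cetA had 31 and 3, AN8223 had 7 and 64, AN5000 had 8 and 56, and AN9117 had 8 and 72.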

How the results depend on the processing

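The numbers of genes at least 4-fold higher (85) and lower (34) in urea stayed within 1.5 times under total count scaling (77 and 37), DESeq2 size factors, a prior count of 0.25, no abundance minimum (118 and 50) and the authors' deposited log2 fold changes (90 and 38). They were 55 and 20 with a prior count of 5, 28 and 8 with a mean log2 CPM of 5 or more, and 41 and 9 where the whole counting interval had to pass 4-fold. The 293 antisense features past 4-fold in either direction became 99 with a prior count of 5. Of 367 alternative group medians, 3 moved by more than a member's typical counting error, all at the minimum of 5: siderophore and iron by symbol to 1.17, urea and arginine to -0.13 and ergosterol synthesis to 0.89. Of 1242 alternative gene ratios, 20 left their counting interval and 0 called ratios changed sign. Ratios of genes with 0 to 3 reads in ammonium shrink with the larger prior, to 5.03 for mepA, 5.11 for ureA, 5.22 for AN0300 and 5.94 for AN7539. No paired analysis was possible because each medium has 1 pooled library. Depth limits the weak genes: 3 reads equal 1.77 CPM in urea and 1.15 CPM in ammonium.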
